A study of Mus musculus with 6 samples.

Results

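The cytosolic and mitochondrial chaperones analysed here are 34 genes of the 16244 in the deposited expression table. They were chosen by gene symbol, with earlier results of these data known. They fall into 5 role groups, namely 10 heat-inducible chaperones, 7 constitutive HSP70 and HSP90 chaperones with their co-chaperones, 10 subunits of the CCT ring and of prefoldin, 5 mitochondrial chaperones, and the 2 heat shock factors Hsf1 and Hsf2. All 34 were in the table, and 33 reached the mean of 10 normalized reads that was needed for the test. The one below it was Hspb1, the small heat shock protein HSP25.

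RNA-seq was performed on Th17 cells from mice that were wild type (WT, 3 libraries) or carried the N275D substitution in RORγt, the transcription factor that defines Th17 cells (N275D, 3 libraries). Naive CD4+ T cells came from the spleen and were grown for 3 days with anti-CD3 and anti-CD28 in the pathogenic Th17 mix. The series text names IL-6, IL-1β and IL-23 for this mix, to which the study's methods add TGF-β and antibodies against IL-4 and IFN-γ, the same for both groups. The substitution was knocked into the germline with CRISPR-Cas9 on the C57BL/6 background, so every cell type of these mice carried it. The study's methods list WT C57BL/6 mice from a commercial supplier and, for the transfer experiments, littermate controls when applicable. Which of these sources the WT donors of these libraries came from was not given. The study's general methods give young adult mice of both sexes. Whether the donors of these libraries were homozygous, their own age, and whether the 3 libraries of a group came from separate mice or cultures were not given in the sources used here, so that the p-values below measure the spread between these libraries, which may be technical. Each library held 17659035 to 18510878 assigned reads.

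Chaperones bind unfolded stretches of other proteins and keep them from aggregating until they fold. HSP70 proteins work in cycles with J-domain partners, which deliver the client, and with nucleotide exchange factors, which release it, whereas HSP90 receives partly folded clients such as kinases and steroid receptors through co-chaperones. The CCT ring folds actin and tubulin, prefoldin hands it these clients, and the HSP60 and HSP10 ring folds proteins imported into the mitochondrial matrix. Heat shock factor 1 drives the inducible chaperones when unfolded proteins accumulate, and T cells raise many chaperones when they are activated and start to grow.

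Heat shock factors bind inverted repeats of the bases GAA, so the promoters of the members were read for this element. The reading was not blind to expression, since earlier results of these data were known. A window of the 250 bases before the gene start (RefSeq, GRCm38.p6) was at hand for 27 of the 34 members. The motif searched was GAANNTTC or TTCNNGAA, which read the same on both strands. It lay in the windows of 11 members (40.7%), against 12.2% of the 12798 genes of the table with a window. It was found in 6 of 9 heat-inducible members, 1 of 5 constitutive members, 2 of 8 CCT and prefoldin members, 2 of 4 mitochondrial members, and not in the window of Hsf2. The motif with 3 units in a row, GAANNTTCNNGAA or TTCNNGAANNTTC, contains the shorter one and was found for Hspd1 and Hspe1, against 0.438% of the genes of the table with a window. The stretches below show the element, with the matched bases in capitals, for members of each group in which it was found.
Hspe1, chr1:55088053-55088082, plus strand: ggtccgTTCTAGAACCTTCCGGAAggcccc
Hspd1, chr1:55088053-55088082, minus strand: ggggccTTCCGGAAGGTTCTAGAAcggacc
Hsph1, chr5:149636351-149636380, minus strand: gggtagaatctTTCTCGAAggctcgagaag
Dnaja1, chr4:40722333-40722362, plus strand: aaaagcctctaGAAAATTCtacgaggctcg
Fkbp4, chr6:128438789-128438818, minus strand: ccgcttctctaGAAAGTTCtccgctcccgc
Cct5, chr15:31601862-31601891, minus strand: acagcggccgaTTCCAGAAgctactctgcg
Hspe1 and Hspd1 are neighbours that are read away from each other, and the 18 capital bases are one element seen from both strands, 89 to 72 bases before the start of Hspe1 and 144 to 127 bases before that of Hspd1. The annotation places this element within an exon of a longer Hspd1 transcript, the Hsph1 and Dnaja1 stretches within exons of those genes, and the Fkbp4 and Cct5 stretches within exons of the neighbours Gm10069 and Fam173b.

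The HSP70 genes Hspa1a and Hspa1b are near copies, also in their promoters, and are shown side by side because Hspa1b passed the test described below and Hspa1a did not. Whether the 2 genes differ from each other in their change was not tested. The 150 bases before each start were the same at 149 positions and differed at 1, and the full 250 bases differed at 3.
Hspa1a, chr17:34972157-34972306, minus strand: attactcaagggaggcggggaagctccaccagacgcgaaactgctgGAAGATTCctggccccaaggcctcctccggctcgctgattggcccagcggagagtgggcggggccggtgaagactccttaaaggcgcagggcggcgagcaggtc
Hspa1b, chr17:34959239-34959388, minus strand: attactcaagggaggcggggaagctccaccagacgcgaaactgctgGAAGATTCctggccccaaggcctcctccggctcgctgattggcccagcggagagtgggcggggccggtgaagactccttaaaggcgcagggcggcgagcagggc
The capitals mark the same motif in both, 104 to 97 bases before the start, and neither window overlaps an annotated exon.

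Before the comparison, the libraries and labels were checked. As markers of the labelled cell type, Cd4 was read at 9143 ± 331 (SD, n = 3) normalized reads in WT and 7591 ± 26.1 in N275D, and the Th17 cytokine gene Il17a at 27500 ± 365 and 32150 ± 458. WT replicate 3 stood apart from the other WT libraries. The mean chi-square per gene, which is about 1 for counting noise alone, was 5.11 and 5.67 for its 2 pairs and 1.61 to 2.02 for the 4 other pairs within a group. It held the lowest WT value for 19 of the 33 tested members, so results that turn on this library are given with and without it.

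Chaperones were more often lower than higher in N275D, and the 2 that were higher were Hspa1b and Hsf2. Of the 33 tested members, 21 fell, 2 rose and 10 did not pass the test (limma on log2 of normalized reads plus 1, Benjamini-Hochberg adjusted p under 0.05 over the 11908 genes tested). The background was wide, since 50.9% of all tested genes passed in either direction, 26.1% lower and 24.7% higher. Against these shares, 21 of 33 members lower is a larger fraction than among all genes and 2 of 33 higher a smaller one. All 3 N275D libraries lay below all 3 WT libraries for 22 members, against 29.6% of all tested genes, and above them for 2, against 28.1%. Without WT replicate 3, 26 members fell and 2 rose, whereas with quantile normalization, which gives every library the same distribution of values, 13 fell and 2 rose.

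The sizes were modest. The median log2 fold change of the 33 members was -0.13, their range was -0.46 to 0.53, and the median over all tested genes was -0.0026. No member reached a change of 2-fold, whereas 3.59% of all tested genes both passed the limma test and reached 2-fold. An unadjusted limma p under 0.05 was found for 25 of the 33 members, against 6715 of the 11908 genes tested. Most members are abundant transcripts, and abundant genes as a class leaned the same way. In a comparison added after the data were seen, the 4220 genes that averaged 1000 or more normalized reads centred at a log2 fold change of -0.06 (median), and 40.7% of them were lower and 19.9% higher. Of the 25 members in that class, 19 fell and 6 did not pass.

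**Figure D1:**
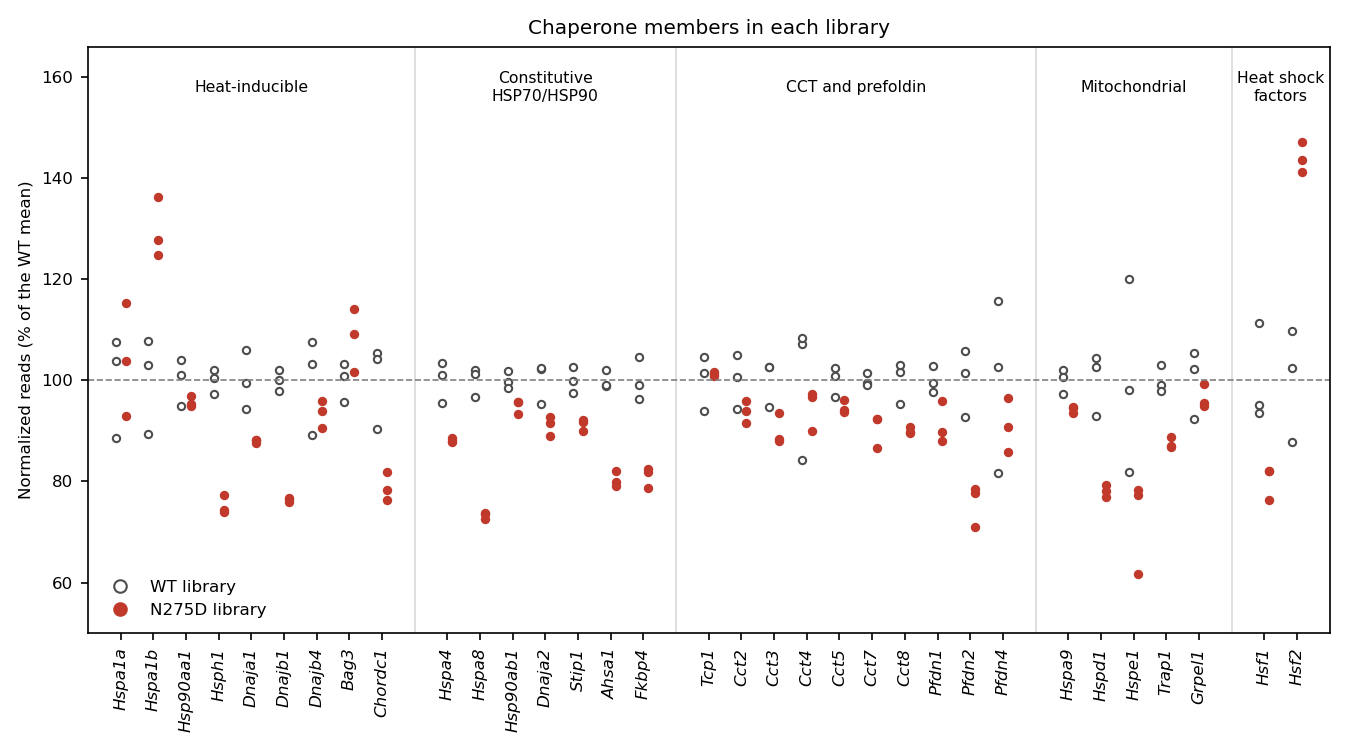
Normalized reads of each tested member in each library, as a percentage of the WT mean of that gene (vertical axis), with members in their role groups along the horizontal axis. Open circles are the 3 WT libraries and filled circles the 3 N275D libraries. For 22 of the 33 genes the N275D libraries all lie below WT, and for Hspa1b and Hsf2 they all lie above.

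**Figure D2:**
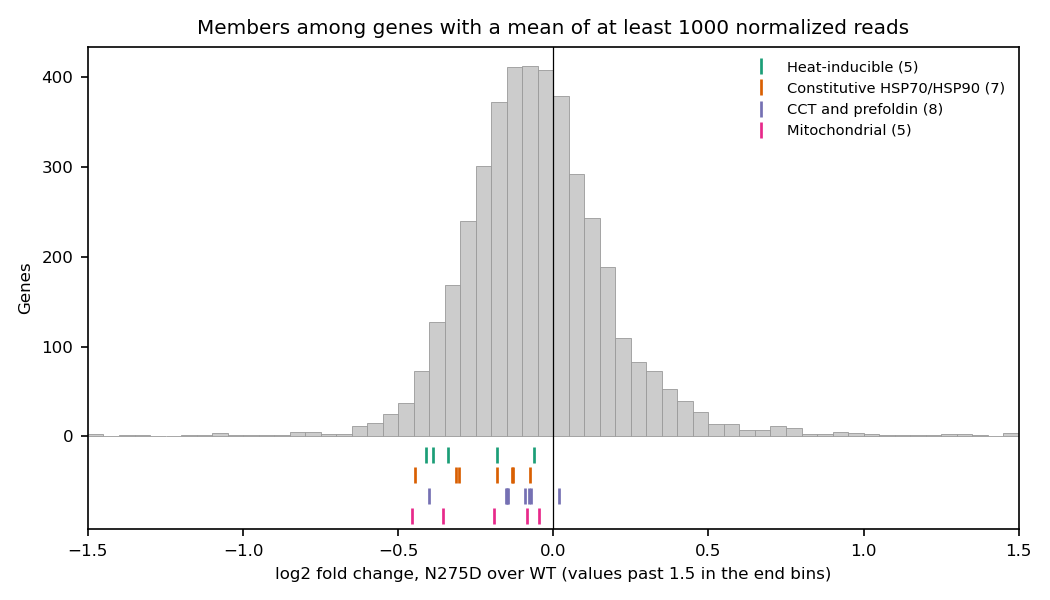
Histogram of the log2 fold change, N275D over WT, of the 4220 genes that averaged 1000 or more normalized reads, with a tick below it for each of the 25 members in that class, coloured by role group. The genes as a whole centre at -0.06, and all ticks but that of Tcp1 lie below 0.

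Among the heat-inducible chaperones the members went in both directions. Of 9 tested, 4 fell (Hsph1, Dnajb1, Chordc1 and Dnaja1), Hspa1b rose and 4 did not pass, with a median log2 fold change of -0.09. Without WT replicate 3 the count that fell was 5, and the median was -0.17. Leaving out WT replicate 2 brought the median to -0.04. The background for this group and the role groups below is 26.1% lower and 24.7% higher over all tested genes. Among genes averaging 1000 or more normalized reads it is 40.7% and 19.9%. The 4 members that fell are all in this abundant class, as is Hsp90aa1, which did not pass. Of the tested members outside it, Hspa1b rose and Hspa1a, Dnajb4 and Bag3 did not pass.

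Hspa1b, one of the genes for the stress-induced HSP70, was read at 236, 272 and 285 normalized reads in the WT libraries and at 360, 330 and 338 in the N275D libraries. All N275D values were above all WT values. The mean went from 264 ± 25.3 (SD, n = 3) to 343 ± 15.8, a rise of 29.6% and a log2 fold change of 0.38 (SE 0.08, limma adjusted p = 0.00104). Hspa1a, whose protein is nearly the same, was read at 81.8, 95.8 and 99.2 in WT and at 85.9, 106 and 95.8 in N275D. Its groups overlapped, and the log2 fold change of 0.06 (SE 0.12) did not pass (limma adjusted p = 0.728). Its sign turned with quantile normalization (-0.09), without WT replicate 1 (-0.03) and without N275D replicate 2 (-0.02). Of the 150-base stretches of Hspa1b transcripts, 40.5% also occur in Hspa1a or Hspa1l, and of those of Hspa1a 39.7% occur in Hspa1b or Hspa1l, so the split of reads between the copies is uncertain. The sum of Hspa1a and Hspa1b does not depend on this split. It was 318, 368 and 384 in WT and 446, 436 and 434 in N275D, with no overlap (two-sided exact permutation test, p = 0.1, the smallest that 3 against 3 libraries allow).

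Hsph1, the large HSP70-like exchange factor HSP110, was read at 5681, 5778 and 5510 in WT and at 4376, 4180 and 4210 in N275D. The groups were far apart relative to their spread. The mean fell by 24.8%, with a log2 fold change of -0.41 (SE 0.04, limma adjusted p = 1.70e-07). Dnajb1, the J-domain partner HSP40 of the inducible HSP70, had 1616, 1582 and 1650 normalized reads in WT and 1240, 1228 and 1237 in N275D. The N275D libraries agreed closely, and the log2 fold change was -0.39 (SE 0.04, limma adjusted p = 1.94e-06). Chordc1, which encodes the HSP90 partner morgana, fell by 0.34 on the log2 scale from 1866 ± 155 to 1470 ± 52.2 (SD, n = 3, limma adjusted p = 0.000100). Dnaja1, a J-domain protein of the cytosol, fell by 0.18 (limma adjusted p = 0.00169), but with quantile normalization the log2 fold change was -0.10 (adjusted p = 0.0833).

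Hsp90aa1, the inducible HSP90, was read at 29516, 30364 and 27686 in WT and at 27838, 27694 and 28304 in N275D. The lowest value of all was WT replicate 3, and the log2 fold change of -0.06 (SE 0.04) did not pass (limma adjusted p = 0.163). Without WT replicate 3 it was -0.10 and passed, with a limma adjusted p of 0.00247. Of its 150-base stretches, 30.9% occur in 3 other annotated genes. Dnajb4, another J-domain protein, had a log2 fold change of -0.09, and Bag3, an exchange factor that directs HSP70 clients to autophagy, had 0.11. Neither passed the limma test (adjusted p = 0.405 and 0.15). Hspb1 was at 2, 0 and 0 reads in WT and 3, 2 and 1 in N275D, at or under a floor of 3 reads in every library, so no fold is given.

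All 7 constitutive HSP70 and HSP90 members fell, and the N275D libraries were below the WT libraries for each of the 7. The median log2 fold change was -0.18. With quantile normalization 4 of the 7 fell, and with limma run without a trend in the variance 5 did. Hspa8, the constitutive HSP70 known as HSC70 (GRCm38, chr9:40800984-40810087, plus strand), changed the most in this group. It was read at 89301, 88693 and 84567 in WT and at 63567, 64545 and 64466 in N275D. The gap between the groups was many times the spread within either. The mean went from 87520 ± 2576 (SD, n = 3) to 64193 ± 543. It fell by 26.7%, with a log2 fold change of -0.45 (SE 0.03, limma adjusted p = 1.09e-08). With quantile normalization the change was smaller, at -0.29 (limma adjusted p = 1.46e-07). Of its 150-base stretches, 48.8% also occur in 4 other annotated genes, and how reads that fit several genes were counted is not given in the sources used here.

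Hsp90ab1, the constitutive HSP90, was the member with the smallest change in this group. It was read at 94032, 92823 and 96100 in WT and at 90218, 90260 and 88001 in N275D. The groups did not overlap but lay close together, with a log2 fold change of -0.08 (SE 0.03) that was just past the threshold (limma adjusted p = 0.0479). This call was lost in 11 of the alternative analyses. Among them were DESeq2 (adjusted p = 0.0838) and limma without WT replicate 1 (adjusted p = 0.0818). It was also lost with each N275D library left out in turn (limma adjusted p = 0.0863, 0.0955 and 0.174 without replicates 1, 2 and 3). Quantile normalization, also among the 11, assigns values by rank and gave this gene the same mean in both groups, so it could not show a change.

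After Hspa8, the HSP90 co-chaperones Ahsa1 and Fkbp4 had the largest changes of the group. Ahsa1, which stimulates the HSP90 ATPase, was read at 4070, 4082 and 4199 in WT and at 3293, 3379 and 3257 in N275D. Its log2 fold change was -0.31 (SE 0.04, limma adjusted p = 3.27e-06). Fkbp4, the immunophilin FKBP52 of steroid receptor complexes, had 7836, 7624 and 8271 normalized reads in WT and 6475, 6520 and 6219 in N275D. It fell by 0.30 on the log2 scale (SE 0.04, limma adjusted p = 7.01e-06). The mean of Ahsa1 fell by 19.6% and that of Fkbp4 fell by 19.0%, and neither gene's groups overlapped.

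Hspa4, an exchange factor of the HSP110 family, fell by 0.18 on the log2 scale (limma adjusted p = 0.000657). Stip1, the adaptor HOP that joins HSP70 to HSP90, and Dnaja2, a J-domain protein, each fell by 0.13 (limma adjusted p = 0.00515 and 0.00961). With quantile normalization both calls were lost, at -0.07 for Stip1 and -0.04 for Dnaja2 (limma adjusted p = 0.0964 and 0.485). That for Dnaja2 was also lost without N275D replicate 2 and without the trend (limma adjusted p = 0.0601 and 0.0588).

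**Figure D3:**
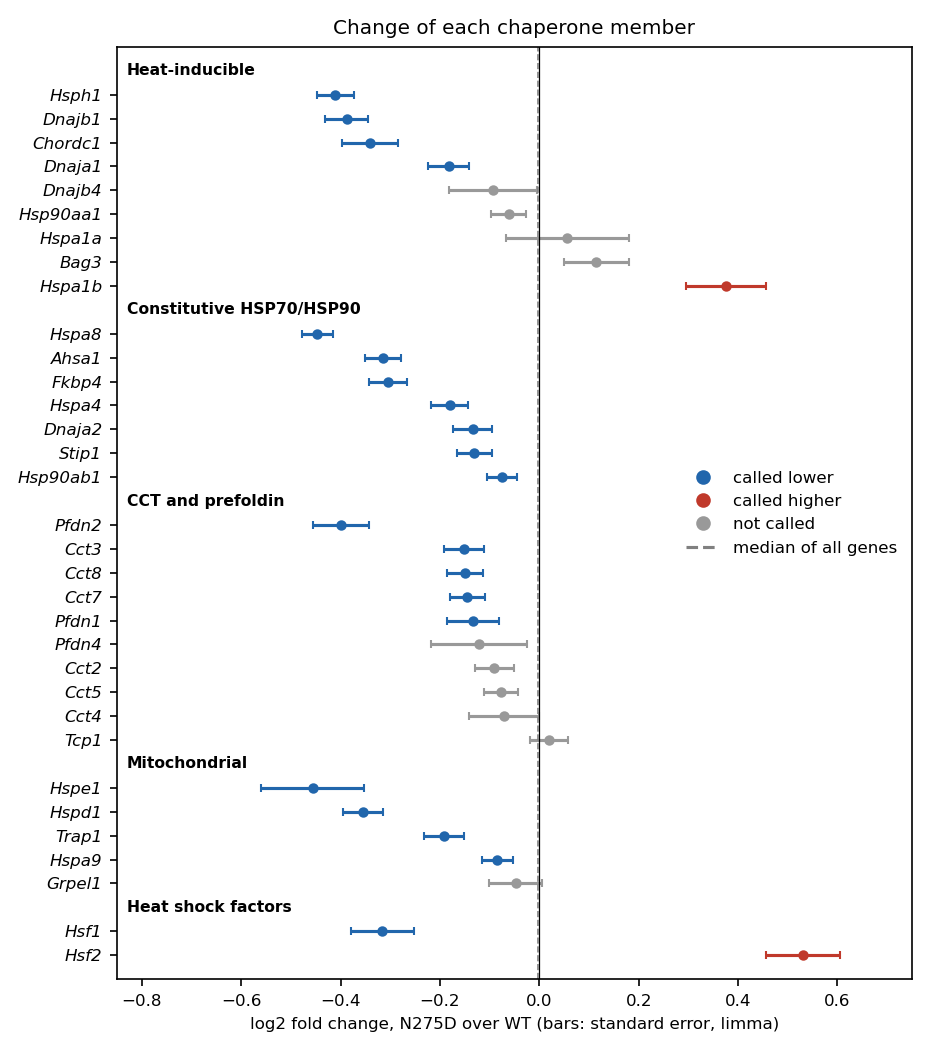
Log2 fold change, N275D over WT, of the 33 tested members (horizontal axis), by role group, with the limma standard error as bars. Blue marks members called lower, red members called higher and grey members that did not pass, and the dashed line is the median of all tested genes. Hspe1 at -0.46 and Hsf2 at 0.53 are the extremes.

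The CCT ring and prefoldin changed less evenly. Of the 10 members, 5 fell and 5 did not pass, with a median log2 fold change of -0.13. Of the 7 ring subunits among the members 3 fell (Cct3, Cct7 and Cct8), and of the 3 prefoldin members 2 fell (Pfdn1 and Pfdn2). All 7 ring subunits averaged 1000 or more normalized reads. Of all tested genes at that level 40.7% were lower, so 3 of 7 is near the background. The ring subunit Cct6a is not a member and is given with the other pathway genes below. The count for this group depended on WT replicate 3, because without it 9 of the 10 fell. With quantile normalization only Pfdn2 did, and without a trend in the variance 3 of the 10 did.

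Pfdn2, a subunit of prefoldin and of the related URI complex, was read at 1610, 1472 and 1682 in WT and at 1127, 1246 and 1235 in N275D. It had the largest change among these 10, at -0.40 (SE 0.06, limma adjusted p = 2.13e-05). Cct3 had 10211, 10209 and 9430 normalized reads in WT and 9314, 8760 and 8790 in N275D, and Cct8 had 10663, 10807 and 9989 in WT and 9422, 9391 and 9529 in N275D. Both fell by 0.15 on the log2 scale (limma adjusted p = 0.00453 and 0.00263), and their groups did not overlap. Cct7 also fell by 0.15 (limma adjusted p = 0.00266). Pfdn1 fell by 0.13 (limma adjusted p = 0.0448), a call that was lost without WT replicate 1 or 2 or N275D replicate 2 or 3 (limma adjusted p = 0.055, 0.135, 0.176 and 0.129).

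Tcp1, the first ring subunit, was read at 12733, 12353 and 11438 in WT and at 12375, 12336 and 12280 in N275D. Its log2 fold change of 0.02 (SE 0.04) did not pass (limma adjusted p = 0.694) and was -0.02 without WT replicate 3, and the N275D values lay within the WT range. The ring subunits Cct2, Cct4 and Cct5 had log2 fold changes of -0.09, -0.07 and -0.08 and the prefoldin subunit Pfdn4 one of -0.12, none past the limma test (adjusted p = 0.0672, 0.422, 0.0675 and 0.309). WT replicate 3 was the lowest WT library for Cct2, Cct4 and Pfdn4. Cct4 was read at 7194, 7273 and 5646 in WT and at 6482, 6027 and 6523 in N275D. Without that library all 4 fell, by 0.13, 0.19, 0.07 and 0.26 on the log2 scale (limma adjusted p = 0.000506, 3.10e-05, 0.0445 and 0.00245), and Cct5 also fell without WT replicate 1 (by 0.10, limma adjusted p = 0.0356).

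In the mitochondrial group, both parts of the folding ring of the matrix were lower in N275D. Of 5 members 4 fell and Grpel1 did not pass, with a median log2 fold change of -0.19. Hspd1, the ring protein HSP60, was read at 27863, 27402 and 24793 in WT and at 20517, 21145 and 20857 in N275D. The N275D values lay close together and below every WT value. The mean fell by 21.9%, with a log2 fold change of -0.35 (SE 0.04, limma adjusted p = 2.34e-06).

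Hspe1, its lid HSP10, was read at 5381, 4484 and 6582 in WT and at 3377, 4295 and 4240 in N275D. Its mean fell by 27.6%, a log2 fold change of -0.46 (SE 0.10, limma adjusted p = 0.00165). The size depended on single libraries, at -0.32 without WT replicate 3 and -0.59 without WT replicate 2 (limma adjusted p = 0.000371 and 3.05e-05). The highest N275D library was just below the lowest WT library, and the call was lost when limma was run without a trend in the variance (adjusted p = 0.0636). Hspd1 and Hspe1 overlap on opposite strands, and the strand setting of the read counting is not given in the sources used here. Hspe1 has 774 exonic bases.

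Trap1, the mitochondrial HSP90, was read at 2668, 2635 and 2776 in WT and at 2392, 2342 and 2336 in N275D. It fell by 0.19 on the log2 scale (SE 0.04, limma adjusted p = 0.000759), with no overlap, and by 0.12 with quantile normalization (limma adjusted p = 0.0177). Hspa9, the matrix HSP70 mortalin, fell by 0.08 (limma adjusted p = 0.0357), a call that was lost when WT replicate 1 or 2 or any of the N275D libraries was left out (limma adjusted p = 0.126, 0.0886, 0.0832, 0.0943 and 0.11). Its exchange factor Grpel1 was read at 1325, 1162 and 1287 in WT and at 1249, 1195 and 1203 in N275D. These groups overlapped, and the log2 fold change of -0.05 (SE 0.05) did not pass (limma adjusted p = 0.477).

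The 2 heat shock factors moved in opposite directions. Hsf1 (GRCm38, chr15:76477422-76501913, plus strand), the main regulator of the inducible chaperones, was read at 960, 977 and 1143 in WT and at 843, 843 and 783 in N275D. It fell by 0.32 on the log2 scale (SE 0.06, limma adjusted p = 0.000677), with no overlap between the groups. Hsf2 (GRCm38, chr10:57486385-57513135, plus strand), which can pair with HSF1 and acts also in development, was read at 390, 418 and 334 in WT and at 546, 560 and 537 in N275D. Its mean rose by 44.0%, from 380 ± 42.6 (SD, n = 3) to 548 ± 11.4, and the log2 fold change was 0.53 (SE 0.08, limma adjusted p = 2.47e-05). Both calls held under every alternative analysis run.

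The members with the motif were also set beside the others, as a description. Of the 11 with the motif in the window, 5 fell, Hspa1b rose, 4 did not pass and Hspb1 was not tested, and the median log2 fold change was -0.14. Of the 16 with a window that did not hold it, 11 fell, Hsf2 rose and 4 did not pass, with a median of -0.15. Of the 7 members with no window, 5 fell and 2 did not pass. Within the motif set, the genes printed above ranged from Hspe1 at -0.46 to Hspa1b at 0.38, and Hspa1a, with the same 30 bases around the motif as Hspa1b, was at 0.06.

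Levels of different genes were compared as normalized reads per kilobase of annotated exon, over 15648 genes with a length. Hsp90ab1 was the 12th and Hspa8 the 16th highest of these genes, at 37428 and 36558 per kilobase in WT and 35513 and 26814 in N275D. By their WT level, Hspd1 (11014 in WT and 8601 in N275D), Hsp90aa1 (8633 and 8265) and Hspe1 (7083 and 5130) followed among the members. In N275D, Hspa9 (6227), Cct5 (5777) and Cct2 (5711) lay above Hspe1. At the low end were Hsf2 (139 and 201), Hspa1b (94.4 and 122), Dnajb4 (71.1 and 66.4) and Hspa1a (31.1 and 32.4). The heat-inducible genes thus included both an abundant member, Hsp90aa1, and the lowest of those tested, Hspa1a. The 7 ring subunits among the members, which occupy one place each in the CCT ring, lay between 2699 and 6099 per kilobase in WT. This 2.26-fold span was also 2.26-fold in N275D, and it does not include the ring subunit Cct6a, which is not a member.

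**Figure D4:**
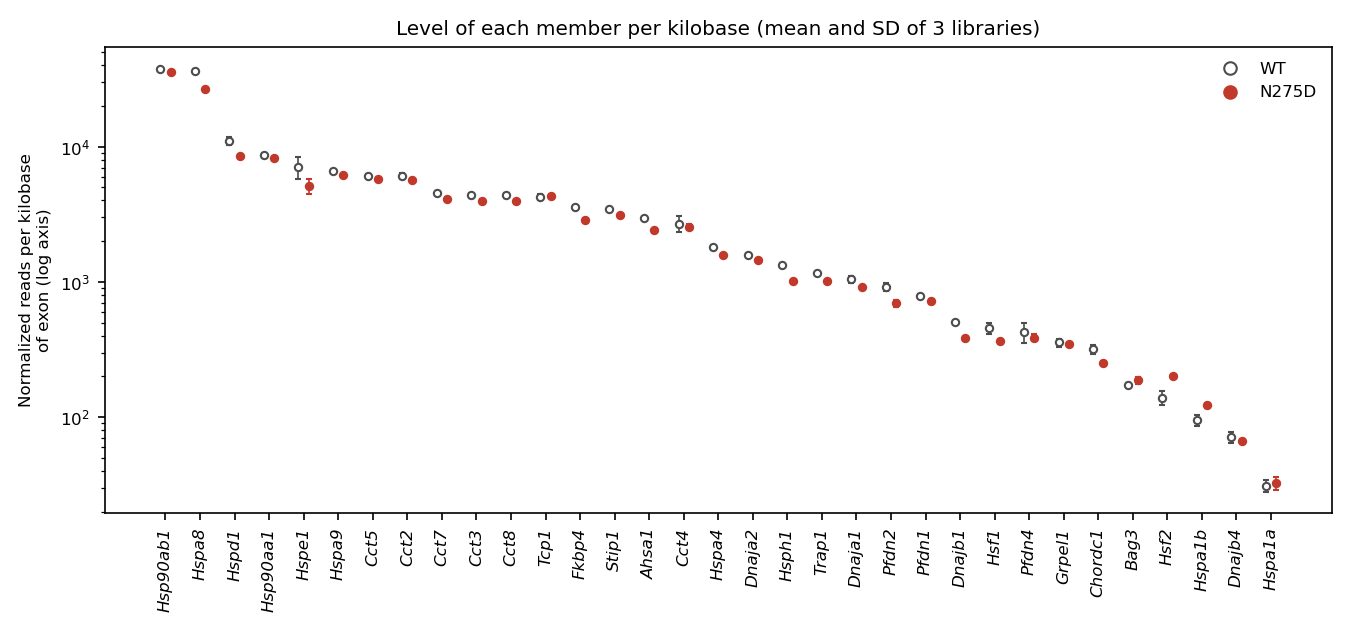
Normalized reads per kilobase of exon (log axis) of the 33 tested members, in the order of their WT level. Open circles are WT and filled circles N275D, as means of 3 libraries with the SD as bars. Hspa8, Hspd1 and Hspe1 are among the most abundant members and are lower in N275D, whereas Hsf2 and Hspa1b, near the low end, are higher.

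Paralog pairs gave the balance of the inducible and constitutive forms within each library. The log2 ratio of Hspa1a plus Hspa1b to Hspa8 was -8.13, -7.91 and -7.78 in WT and -7.15, -7.21 and -7.22 in N275D. The groups did not overlap and the means differed by 0.75 (two-sided exact permutation test, p = 0.1, the smallest possible). Per kilobase, Hspa8 was 291-fold above the sum of both genes in WT and 173-fold in N275D. Parts of Hspa8, Hspa1a and Hspa1b also occur in other genes, and how such reads were counted is not given, so these folds are uncertain. The ratio of Hsp90aa1 to Hsp90ab1 was -1.69 ± 0.0935 (SD, n = 3) in WT and -1.68 ± 0.0371 in N275D, a difference of 0.01 that was within the spread (exact permutation p = 0.9). That of Hspd1 to Hspe1 was 2.30 ± 0.355 in WT and 2.40 ± 0.175 in N275D, also within the spread (exact permutation p = 0.9). The sign of both differences turned when some libraries were left out, to -0.04 without WT replicate 3 and -0.0074 without N275D replicate 3 for the HSP90 pair, and to -0.09 without WT replicate 3 and about 0 without N275D replicate 1 for the mitochondrial pair.

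The 34 members took 2.21%, 2.19% and 2.12% of the normalized reads of the WT libraries and 1.94%, 1.95% and 1.94% of those of the N275D libraries. Hspa8 alone went from 0.483% ± 0.0158 (SD, n = 3) to 0.363% ± 0.00302. Without Hspa8 the share was 1.69% ± 0.0323 in WT and 1.58% ± 0.00298 in N275D, still with no overlap. The mitochondrial group held 0.303% to 0.320% in WT and 0.264% to 0.271% in N275D. The CCT and prefoldin shares overlapped, at 0.405% to 0.437% and 0.405% to 0.410%, with WT replicate 3 lowest of the 6 libraries. In bulk samples, fewer cells of a type and less RNA per cell cannot be told apart, which holds for every level given here.

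**Figure D5:**
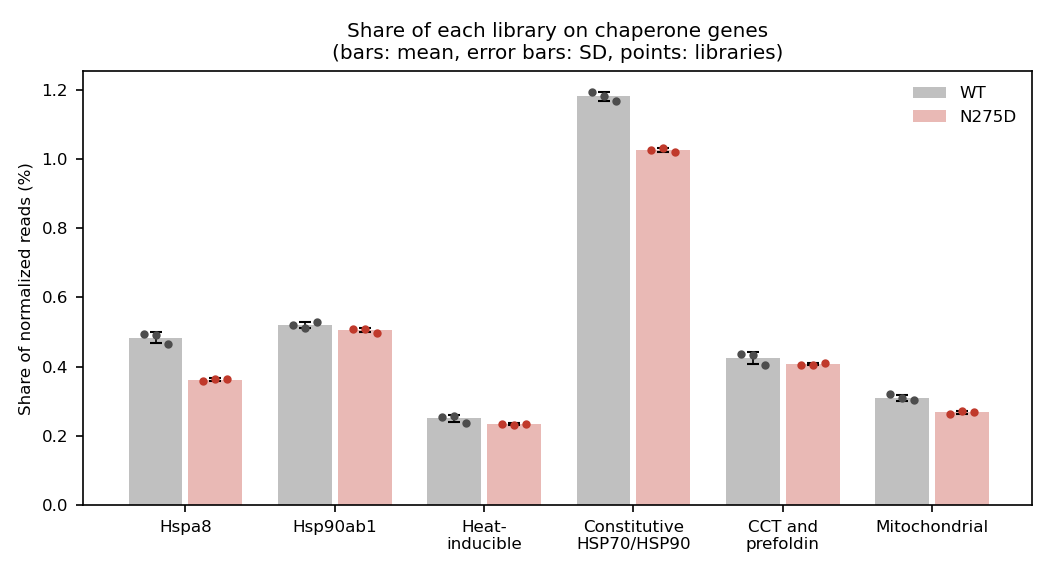
Share of the normalized reads of each library, in percent, on Hspa8, on Hsp90ab1 and on 4 role groups (the bars for the constitutive group include both genes). Bars are means of 3 libraries, error bars the SD and points the libraries. The N275D points lie below the WT points for all but the CCT and prefoldin group.

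Other genes of the same pathways, taken from lists that exclude the 34 members, were also counted. Of 86 tested, 27 fell, 15 rose and 44 did not pass, with a median log2 fold change of -0.04. Over all tested genes 26.1% were lower and 24.7% higher, which is the background for these counts and for each list below. The counts of the 86 lie nearer to these shares than those of the members do. Among 22 further HSP90 co-chaperones, 12 fell and 2 rose, with a median of -0.13. Ppid, the immunophilin cyclophilin 40, fell by 0.46 and Ppp5c, a phosphatase of HSP90 complexes, by 0.44 on the log2 scale (limma adjusted p = 5.46e-06 and 4.99e-08). Fnip1, a folliculin partner that slows the HSP90 ATPase, rose by 0.72 (limma adjusted p = 1.63e-06).

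Of 33 further HSP70 and J-domain genes, 7 rose, 5 fell and 21 did not pass, with a median of -0.02. Hspbp1, an HSP70 exchange factor, fell by 0.33 (limma adjusted p = 2.55e-05). The J-domain genes Dnajb13 and Dnajb14 rose by 0.72 and 0.32 (limma adjusted p = 0.0396 and 0.00994). Dnajb13 was near the minimum mean of 10 for the test, at 11.3 ± 3.02 (SD, n = 3) normalized reads in WT and 18.9 ± 0.848 in N275D. Of 18 further mitochondrial chaperones and proteases, 8 fell and 4 rose, with a median of -0.09. Lonp1, the main protease of the matrix, rose by 0.49, whereas Clpp, another matrix protease, fell by 0.40 (limma adjusted p = 3.50e-08 and 1.19e-05), and Hscb, the J-domain partner for iron-sulfur cluster transfer, rose by 0.28 (limma adjusted p = 0.0329). Of 10 further CCT and prefoldin genes, 2 fell (Pdrg1 by 0.26 and the ring subunit Cct6a by 0.14). Uri1 of a prefoldin-like complex rose by 0.22 and 7 did not pass. Of the genes listed under small heat shock protein symbols only 2 could be tested, of which Hspb11 rose by 0.50 (limma adjusted p = 0.00287). The symbol alone does not show that its product is a small heat shock chaperone. Hsbp1, a binder of heat shock factors, was the only gene of the further heat shock factor list that could be tested. It had a log2 fold change of -0.06 (limma adjusted p = 0.466).

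Other gene lists that moved with the groups were measured beside these results. Of 14 genes that respond to handling and stress, 5 rose (Jun, Atf3, Dusp1, Ddit3 and Gadd45b) and 8 fell, with a median log2 fold change of -0.25. Atf3, a factor of the integrated stress response, went from 287 ± 42.6 (SD, n = 3) to 652 ± 31.3 normalized reads, whereas the early gene Egr1 went from 3752 ± 348 to 2300 ± 103. The summed level of 7 B cell genes was 1126 to 1165 in WT and 1707 to 1781 in N275D, with 5 of 6 tested genes higher and at most 0.0101% of all reads. The sum of the 5 CD8 and NK cell genes was 201 to 216 in WT and 284 to 325 in N275D, with 3 of 4 tested genes higher, and that of 7 myeloid genes was 91.9 to 111 and 113 to 137, with 1 of 3 higher and 1 lower. The B cell gene Ms4a1, the myeloid genes Lyz2 and Csf1r and the NK cell gene Klrb1c were near 0. Of 5 γδ T cell genes only Sox13 was in the table, at 18.2 to 31.4 in WT and 35.1 to 38.5 in N275D. The part of these lists and of the handling genes in the chaperone results was not tested.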

How the data were processed

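RNA-seq was made from 3 WT and 3 N275D Th17 libraries. The authors trimmed the read pairs, placed them on mm10 using STAR, assigned them to genes with featureCounts and deposited normalized reads, a signal that is the whole count multiplied by 1 factor per library. All values came out whole within 1e-06 after division by that factor. Further columns hold the authors' group averages, log2 fold changes and q-values of their own comparison, and were not used. Tool versions and the strand setting are not given in the sources used here, and the labels and the methods name different library kits.

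limma 3.58.1 (R 4.3.3; lmFit, eBayes with trend) was run on log2(normalized reads + 1) for 11908 genes averaging 10 or more normalized reads, with no block and with Benjamini-Hochberg adjustment over all of them. Fold changes are on that scale and understate low genes. Single values were compared by exact permutation tests (scipy 1.17.1). The test script was checked on simulated data. Alternatives were pseudocounts of 0.1 and 10, no minimum or a minimum mean of 100, TMM scaling, quantile normalization, eBayes without trend, the replicate number as a block, edgeR 4.0.16 and DESeq2 1.42.0 on the recovered counts, and each library left out. Positions, exon lengths and shared 150-base stretches are from GENCODE (GRCm38), and promoters from RefSeq (GRCm38.p6). The background of genes averaging 1000 or more reads and the sum of Hspa1a and Hspa1b were added after seeing the data.

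The members and lists were chosen with earlier results of these data known. All 34 members are named. Values per library are given for Hspa1a, Hspa1b, Hspa8, Hsp90aa1, Hsp90ab1, Hspd1, Hspe1 and Hsf1, and in each role group for the 3 called members with the largest changes and the member with the smallest. Of the other pathway lists, the 3 called genes with the largest changes were named. The level of the targeted gene is not reported here.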

Additional observations from a re-analysis of the deposited data

How the results depend on the processing

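Of the 23 members that passed, 13 kept their call under all alternatives. Of the 527 member values under an alternative, 4 turned direction, none of them past the threshold, namely Hspa1a (-0.0915 with quantile normalization, -0.0277 without WT replicate 1 and -0.0197 without N275D replicate 2) and Tcp1 (-0.0245 without WT replicate 3). With 1 library left out at a time, these 2 genes ran from -0.0277 to 0.133 and from -0.0245 to 0.0529. Quantile normalization had the most effect, with 15 members passing, 13 of them lower, and with medians of -0.14 for the constitutive, -0.0636 for the CCT and prefoldin and -0.12 for the mitochondrial group, and the cause was not tested. With a mean of at least 100, which removes Hspa1a, the heat-inducible median was -0.14. Calls past 2-fold over all genes were 427 in the reported analysis, 259 with a pseudocount of 10, 703 with no minimum, which tests more genes, and 162 with a mean of at least 100, which tests fewer. With 1 library left out at a time, 19 to 28 members passed, 17 to 26 of them lower and 2 higher, and all calls ran from 5162 to 6396 (424 to 450 at 2-fold). The medians then ran from -0.17 to -0.0382 for the heat-inducible, -0.21 to -0.16 for the constitutive, -0.17 to -0.10 for the CCT and prefoldin, -0.21 to -0.17 for the mitochondrial group and 0.09 to 0.13 for the heat shock factors. The differences of log2 ratios ran from -0.0372 to 0.0544 for Hsp90aa1 to Hsp90ab1 (-0.0372 without WT replicate 3 and -0.0074 without N275D replicate 3), from 0.65 to 0.83 for Hspa1a plus Hspa1b to Hspa8, and from -0.0917 to 0.26 for Hspd1 to Hspe1 (-0.0917 without WT replicate 3 and -3.95e-05 without N275D replicate 1). The calls of Hsp90ab1, Hspa9 and Pfdn1 were lost in 11, 10 and 10 of the alternatives. With the replicate block, 5727 genes and 20 members passed (18 lower, 2 higher). Deviations of same-numbered libraries had correlations of -0.08 to 0.04, against -0.05 to 0.09 for other numbers, so the numbers were not treated as a pairing.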
